A study of Mus musculus with 12 samples.

Results

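The proteins of the Bcl-2 family decide whether the outer membrane of the mitochondrion is opened during apoptosis. The anti-apoptotic members Bcl-2 (gene Bcl2), Bcl-xL (Bcl2l1) and Mcl-1 (Mcl1) hold the pore-forming effectors Bax and Bak (Bax, Bak1) and the BH3-only proteins in check. The BH3-only proteins Bim (Bcl2l11), Puma (Bbc3), Bad (Bad), Bid (Bid) and Noxa (Pmaip1) start the process by binding to the other classes. In the thymus, Bim is known for its part in removing self-reactive cells, Puma is a known target of p53 that also acts beside Bim, Bcl-xL keeps double-positive thymocytes alive, and Bcl-2 and Mcl-1 support the single-positive stages.

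These 10 genes were taken by symbol from the 53656 gene rows of the count tables, and all 10 were found and passed the filter on low counts that left 13383 genes for testing. RNA had been sequenced from thymocytes of mice in which both alleles of 2 zinc finger genes, Zfp148 and Zfp281, are floxed. The 4 groups, of 3 libraries each, were dKO and Ctrl cells of an immature CD4 single-positive gate (ImCD4) and dKO and Ctrl cells of an immature CD8 single-positive gate (ImCD8). dKO stands for Zfp148 fl/fl; Zfp281 fl/fl with Cd4-Cre, which is active from the double-positive stage of T cell development, and Ctrl for the same floxed genotype without Cre, so an effect of Cre itself and the loss of the genes cannot be told apart. ImCD4 cells were sorted as CD4+CD8-, CD69+, H2-Kb- and CD44 low, and ImCD8 cells as CD8+ CD4-, CD69+, TCRb+ and CD44 low, so the gates differ in more than the coreceptor. The labels give neither the age of the mice nor the animal behind each library. Spread within a group, on which the p-values rest, may thus be technical, and the replicate numbers used here follow the order of the records only.

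Titles set the groups. In ImCD8 the genotype label contradicts the title of all 6 libraries, and the levels of the targeted genes went with the titles. Zfp148 had 63.0 to 68.9 CPM (gene counts scaled to the size of the library) in dKO ImCD4 libraries against 177 to 182 CPM in Ctrl ImCD4, and 45.6 to 62.8 CPM in libraries titled dKO ImCD8 against 162 to 171 CPM in those titled Ctrl ImCD8. Zfp281 had 16.2 to 21.4 CPM in dKO ImCD4 against 441 to 562 CPM in Ctrl ImCD4, and 10.2 to 14.9 CPM in dKO ImCD8 against 112 to 128 CPM in Ctrl ImCD8. Each library held 7315833 to 10943143 gene counts. Replicate 3 of every group stood apart from replicates 1 and 2 on principal component 3, which carried 5.31% of the variance. Calls of the members that move when these 4 libraries are left out are given both ways. For named genes of the pathway lists, only the loss of a call is stated. In ImCD4 the genotypes also differed in quality measures without overlap, with 9319732 to 10943143 gene counts in dKO and 8276742 to 9173424 in Ctrl, reads outside genes at 10.5% to 12.9% in dKO and 13.6% to 16.4% in Ctrl, and mitochondrial counts at 0.633% to 0.961% in dKO and 1.07% to 1.31% in Ctrl. Reads ambiguous between genes were 5.55% to 5.67% in dKO ImCD4 and 5.37% to 5.46% in Ctrl ImCD4, also without overlap. The part of these measures in the ImCD4 results was not tested. The lineage markers went with the gates: Cd4 had at least 1090 CPM in every ImCD4 library and at most 11.3 CPM in ImCD8, Cd8a had at least 1606 CPM in ImCD8 and at most 89.1 CPM in ImCD4, and Zbtb7b, the gene of the CD4-lineage factor ThPOK, had at least 122 CPM in ImCD4 and at most 0.127 CPM in ImCD8.

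Zfp148 and Zfp281 are known as factors that bind G-rich DNA, so promoters of Bbc3, Bid and Bcl2l11, picked with the results in view, are shown here. Promoters were read from the RefSeq table for GRCm38.p6 for 9 of the 10 members, with 15 windows of the 250 bases before a transcription start. Pmaip1 was left out of this reading, so the counts of member windows below do not cover it. The motif GGGGNGGG or its complement CCCNCCCC, marked by capitals below, was in 10 of the 15 windows and in 28.9% of the 32851 windows of the table. By gene, it was in 8 of the 9 members and in 31.5% of all genes. Members called and not called in dKO held it alike. Bcl2 and Bax, not called, had 3 matches each and Mcl1 had 1, while Bid had 1 and Bak1 had 0. The narrower GGGGAGGG or CCCTCCCC, which the first motif includes, was in 1 of the 15 windows, that of Bcl2l11 start 1, and in 9.69% of all. Each line gives the plus or minus strand of the gene from 5′ to 3′ and ends at the base before the start site. Bbc3 is shown, at 2 of its 3 starts numbered along the gene, because it was the member called higher in both dKO populations. Start 2 of Bbc3, not shown, held 1 match, which also lies in the window of start 3 and counts in both. Bid is shown because it was called in ImCD4, and Bcl2l11 because its start 1 window held the narrower motif. The start 2 window of Bcl2l11, not shown, held 0 matches.
Bbc3, start 1, chr7:16309333-16309582, plus strand: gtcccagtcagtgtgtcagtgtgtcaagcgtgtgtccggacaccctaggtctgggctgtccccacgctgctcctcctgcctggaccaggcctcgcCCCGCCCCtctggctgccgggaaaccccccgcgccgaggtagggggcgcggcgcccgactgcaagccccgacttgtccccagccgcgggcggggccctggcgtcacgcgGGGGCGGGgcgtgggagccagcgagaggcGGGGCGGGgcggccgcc
Bbc3, start 3, chr7:16310181-16310430, plus strand: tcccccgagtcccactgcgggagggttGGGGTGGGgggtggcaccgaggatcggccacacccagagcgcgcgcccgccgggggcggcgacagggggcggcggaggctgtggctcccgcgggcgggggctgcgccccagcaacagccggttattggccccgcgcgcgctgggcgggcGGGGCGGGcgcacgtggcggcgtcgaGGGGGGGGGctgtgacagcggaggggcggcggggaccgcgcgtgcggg
Bid, chr6:120916825-120917074, minus strand: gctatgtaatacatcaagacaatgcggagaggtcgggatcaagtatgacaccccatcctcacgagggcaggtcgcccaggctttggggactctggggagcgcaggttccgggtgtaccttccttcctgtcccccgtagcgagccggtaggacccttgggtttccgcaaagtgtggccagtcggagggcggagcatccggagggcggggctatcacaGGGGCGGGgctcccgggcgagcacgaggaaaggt
Bcl2l11, start 1, chr2:128125788-128126037, plus strand: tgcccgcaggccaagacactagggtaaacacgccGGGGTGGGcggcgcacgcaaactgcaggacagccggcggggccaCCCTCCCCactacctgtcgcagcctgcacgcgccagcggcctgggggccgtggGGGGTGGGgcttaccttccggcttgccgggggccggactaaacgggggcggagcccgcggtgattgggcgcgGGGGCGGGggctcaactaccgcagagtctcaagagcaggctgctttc
The G and C content of these windows was 76.4% and 81.6% for Bbc3, 63.6% for Bid and 72.0% for Bcl2l11, against a median of 52.4% over all windows. Among the members not shown it ran from 47.6% at Bcl2l1 start 3 to 74.8% at Bcl2. A match describes the letters only, and binding was not measured.

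The first comparison set the RNA levels of the family in dKO ImCD4 cells against those in Ctrl ImCD4 cells. Of the 10 members, 2 were called higher in dKO, Bbc3 and Bid, and 0 lower, at an adjusted p under 0.05 by edgeR's quasi-likelihood test with Benjamini-Hochberg adjustment over all genes. The background in this comparison was 13.4% of genes called, 7.26% higher and 6.16% lower. The median log2 fold change was 0.06 over the members and 0.02 over all genes, and the median size of the change regardless of sign was 0.35 over the members and 0.19 over all genes. A further 5 members, Bcl2l1, Mcl1, Bcl2l11, Bad and Pmaip1, had unadjusted p under 0.05 and did not pass the adjusted threshold. With a term for the replicate 3 libraries 5 members passed, with Bad added to those higher and Bcl2l1 and Bcl2l11 called lower. Where groups of 3 libraries are said not to overlap, an exact permutation test would give p = 0.1. How many of all genes lack overlap was not counted, so the phrase is a description. In bulk RNA, fewer cells that express a gene and less RNA of it per cell cannot be told apart, and this holds for every value that follows.

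**Figure D1:**
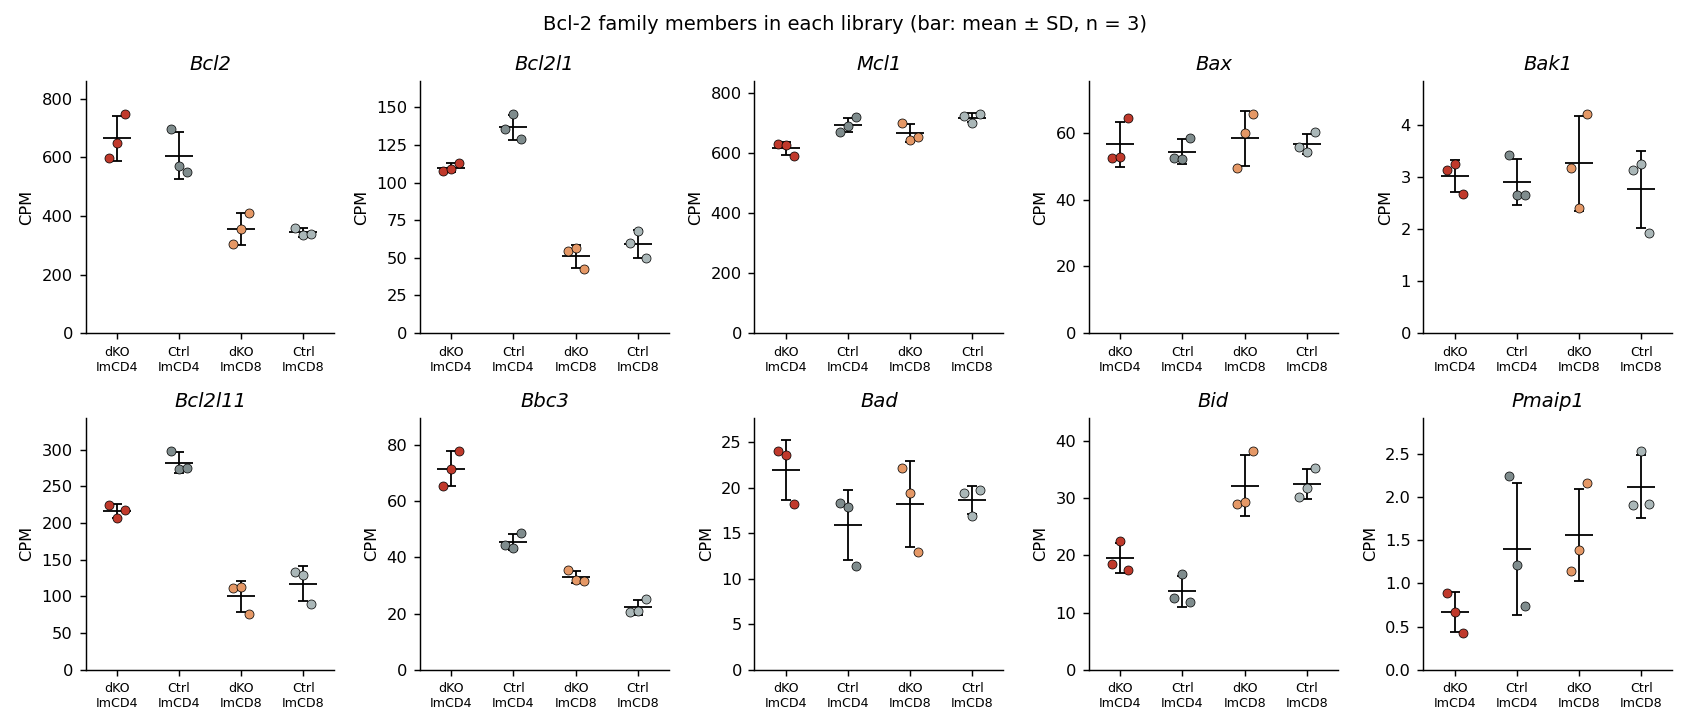
Level of each of the 10 members in every library, in CPM from 0 on the vertical axis, by group on the horizontal axis. Points are libraries, the long bar is the mean and the whiskers the SD of 3 libraries; all 3 dKO points of Bbc3 lie above all 3 Ctrl points in both populations, and Bcl2, Bcl2l1, Bcl2l11 and Bbc3 are lower and Bid higher in both ImCD8 groups than in both ImCD4 groups.

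Among the BH3-only genes, Bbc3 lies on the plus strand of chromosome 7 (16308393 to 16318205, GRCm38). It had 65.3, 71.7 and 78.1 CPM in the dKO ImCD4 libraries, against 44.5, 43.3 and 48.6 CPM in Ctrl ImCD4. The lowest dKO library was above the highest Ctrl library. The mean was 71.7 ± 6.38 CPM in dKO and 45.5 ± 2.80 CPM in Ctrl (SD, n = 3 each), from at least 378 counts a library. This was 1.57-fold higher in dKO, a log2 fold change of 0.65 ± 0.10 (SE) with a 95% interval of 0.45 to 0.86 and an edgeR adjusted p of 0.000334. With every replicate 3 left out the log2 fold change was 0.64.

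Bid encodes the BH3-only protein that caspase-8 cleaves, which links death receptors to the mitochondrion. The dKO ImCD4 libraries had 18.6, 22.5 and 17.4 CPM of Bid, against 12.5, 16.8 and 11.8 CPM in Ctrl ImCD4. The lowest dKO library, at 17.4 CPM, lay just above the highest Ctrl library, at 16.8 CPM. Bid was 1.43-fold higher in dKO, with a log2 fold change of 0.51 ± 0.16 (SE), a 95% interval of 0.18 to 0.85 and an edgeR adjusted p of 0.0433. The call passed in 12 of 21 alternatives with adjusted p from 0.00556 to 0.184, and it was lost without Ctrl ImCD4 replicate 1 or 3, dKO ImCD4 replicate 1 or 2, or Ctrl ImCD8 replicate 1 or 2. Bid (chromosome 6, 120891930 to 120916853, minus strand, GRCm38) shares 628 exon bases, 17.7% of its exons, with Bcl2l13 on the other strand, and whether the counting used strand is not known from the sources at hand. Bcl2l13 itself had a log2 fold change of 0.11 ± 0.07 (SE) in ImCD4 with an edgeR adjusted p of 0.342.

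Bcl2l11, the gene of Bim, was on the other side of zero. It had 224, 207 and 218 CPM in the dKO ImCD4 libraries, against 299, 273 and 275 CPM in Ctrl ImCD4. All 3 dKO libraries were below all 3 Ctrl libraries. The log2 fold change was -0.38 ± 0.15 (SE), with a 95% interval of -0.71 to -0.06, and the adjusted p of 0.116 did not pass in the edgeR test. The spread entering that test came from all 12 libraries, and in the ImCD8 groups replicate 3 was 0.57 (dKO) and 0.53 (Ctrl) log2 units below the mean of replicates 1 and 2. With every replicate 3 left out the log2 fold change of Bcl2l11 was -0.41 with an edgeR adjusted p of 0.00222, and with only the 6 ImCD4 libraries the adjusted p was 0.00214. It also passed with either ImCD8 replicate 3 left out alone. Of 21 alternatives, it passed in 7 and stayed not called in 14. The part of the ImCD8 replicate 3 libraries in this result was not tested.

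Bad and Pmaip1 were the BH3-only members with wide spreads. Bad, whose protein is held inactive by phosphorylation under survival signals, had 24.1, 23.6 and 18.2 CPM in dKO ImCD4, against 18.4, 17.9 and 11.4 CPM in Ctrl ImCD4. Replicate 3 was the lowest in both genotypes, and the groups overlapped. The log2 fold change was 0.47 ± 0.20 (SE) with an edgeR adjusted p of 0.14. With a term for the replicate 3 libraries it was 0.48 ± 0.14 (SE) and passed, with an edgeR adjusted p of 0.0232, and without the filter on low counts the adjusted p was 0.0198. Bad shares 524 exon bases, 20.5% of its exons, with Gpr137 on the opposite strand. Pmaip1, the gene of Noxa, which binds Mcl-1, had 4 to 10 counts in the dKO ImCD4 libraries, or 0.892, 0.670 and 0.428 CPM, against 7 to 19 counts, or 2.24, 1.22 and 0.742 CPM, in Ctrl ImCD4. The ranges overlapped, and the log2 fold change of -1.02 ± 0.45 (SE) had a 95% interval of -1.98 to -0.06, an unadjusted p of 0.0391 and an edgeR adjusted p of 0.156.

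The anti-apoptotic genes gave smaller differences. Bcl2l1 had 108, 109 and 113 CPM in dKO ImCD4, against 136, 146 and 129 CPM in Ctrl ImCD4. Every dKO library lay below every Ctrl library. Its log2 fold change was -0.32 ± 0.11 (SE), with a 95% interval of -0.54 to -0.09 and an edgeR adjusted p of 0.0648, just outside the threshold. With every replicate 3 left out it was -0.38 with an edgeR adjusted p of 0.00609, and it also passed without Ctrl ImCD8 replicate 2 or 3 or dKO ImCD8 replicate 3 alone. Mcl1, whose protein is short-lived, had 630, 627 and 591 CPM in dKO ImCD4, against 671, 691 and 719 CPM in Ctrl ImCD4. The groups did not overlap, yet the log2 fold change was only -0.17 ± 0.06 (SE), with an edgeR adjusted p of 0.0883. Bcl2 had 599, 650 and 749 CPM in dKO ImCD4, against 697, 572 and 551 CPM in Ctrl ImCD4. The groups overlapped, and the 95% interval of its log2 fold change, -0.11 to 0.38, held zero.

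The effectors showed no separation. Bax had 52.7, 52.8 and 64.6 CPM in dKO ImCD4, against 52.5, 52.3 and 58.7 CPM in Ctrl ImCD4. Its log2 fold change of 0.06 had a 95% interval of -0.17 to 0.28 and the groups overlapped. Bak1 had 3.12, 3.25 and 2.67 CPM in dKO ImCD4, against 3.42, 2.65 and 2.65 CPM in Ctrl ImCD4. With 24 to 35 counts a library, its interval of -0.52 to 0.64 leaves changes of either sign possible. Bax shares 192 exon bases with Gm45808 on its own strand, and Bak1 shares exon bases with Ggnbp1 on the other strand.

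Markers of T cells and of other cells moved between the genotypes in ImCD4 as well. Of 11 T cell and lineage markers, 3 were called higher and 0 lower in dKO ImCD4. Cd44, the gene of a protein used in both gates, had 52.7 to 72.2 CPM in dKO ImCD4 against 22.7 to 27.1 CPM in Ctrl ImCD4. Zbtb7b, not called, had 122 to 235.7 CPM in dKO ImCD4 and 236.3 to 388 CPM in Ctrl ImCD4. The summed level of 8 gamma-delta and innate-like markers was 266 to 370 CPM in dKO ImCD4 against 62.1 to 71.0 CPM in Ctrl ImCD4; 3 of the 6 tested were called higher and 0 lower. Sox13 had 178 to 285 CPM in dKO and 18.8 to 21.6 CPM in Ctrl, Il2rb had 67.6 to 73.0 CPM in dKO and 32.5 to 38.5 CPM in Ctrl, and Tcrg-C1 had 2.39 to 7.06 CPM in dKO and 0.318 to 0.471 CPM in Ctrl. The gamma-delta receptor gene Trdc overlapped, at 10.1 to 12.3 CPM in dKO and 7.21 to 11.2 CPM in Ctrl. The innate-like genes Zbtb16 and Klrb1c, at most 0.471 CPM in ImCD4, were too low to test. The sum of 7 mature single-positive markers was 1000 to 1010 CPM in dKO ImCD4 against 1240 to 1440 CPM in Ctrl ImCD4, with 2 of 7 higher and 2 lower. The sum of 7 proliferation markers was 294 to 308 CPM in dKO ImCD4 against 237 to 247 CPM in Ctrl ImCD4, with 1 of 7 higher. The double-positive sum was 174 to 222 CPM in dKO ImCD4 and 159 to 195 CPM in Ctrl ImCD4. Of its 6 genes tested, 1 was higher and 0 lower. Dntt had 78.7 to 87.5 CPM in dKO ImCD4 and 42.3 to 58.6 CPM in Ctrl ImCD4. Cd1d1 ran the other way, with 83.5 to 98.9 CPM in dKO ImCD4 and 105 to 113 CPM in Ctrl ImCD4. The thymic epithelial sum was 30.4 to 38.9 CPM in dKO ImCD4 and 25.3 to 36.2 CPM in Ctrl ImCD4. Of 3 epithelial genes tested, 1, Prss16, was higher. The part of these differences in the Bbc3 and Bid results was not tested. In ImCD8 the double-positive sum was 165 to 201 CPM in dKO libraries, against 109 to 138 CPM in Ctrl, the gamma-delta and innate-like sum 431 to 474 CPM in dKO libraries, against 469 to 517 CPM in Ctrl, and the proliferation sum 547 to 661 CPM in dKO libraries, against 556 to 753 CPM in Ctrl, while the thymic epithelial sum was 109 to 123 CPM in dKO libraries, against 94.4 to 99.3 CPM in Ctrl. Of the epithelial list Epcam was called higher, at 11.4 to 22.0 CPM in dKO and 8.29 to 9.58 CPM in Ctrl, and of the B cell list Cd79b, at 20.1 to 34.0 CPM in dKO and 8.18 to 11.7 CPM in Ctrl. Of the gamma-delta and innate-like list, 0 of the 6 tested passed in ImCD8. Klrb1c, too low to test, had 6 to 9 counts in dKO ImCD8 against 0 to 1 in Ctrl ImCD8. The T cell and lineage list had 2 of 11 higher and 0 lower in dKO ImCD8. Cd44 had 58.8 to 85.0 CPM in dKO ImCD8 and 23.8 to 28.7 CPM in Ctrl ImCD8. The double-positive list had 1 of 6 tested higher and 0 lower in dKO ImCD8. Dntt, from that list, had 91.0 to 120 CPM in dKO ImCD8 and 34.0 to 50.8 CPM in Ctrl ImCD8. The mature single-positive sum was 2850 to 3650 CPM in dKO ImCD8 against 2510 to 3030 CPM in Ctrl ImCD8. Of that list, 1 of 7 was higher and 0 lower in dKO ImCD8, and 3 had an unadjusted edgeR p under 0.05. The part of these markers in the ImCD8 results was not tested either.

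In ImCD8 cells the comparison of dKO with Ctrl gave 1 call among the 10 members, Bbc3, which was higher in dKO. Here 6.14% of all genes were called, 2.62% higher and 3.53% lower, and the members' median log2 fold change was -0.03 against 0.01 over all genes. Bbc3 had 35.4, 32.0 and 31.5 CPM in the dKO ImCD8 libraries, against 20.4, 21.0 and 25.3 CPM in Ctrl ImCD8. The lowest dKO library was above the highest Ctrl library. The mean was 33.0 ± 2.14 CPM in dKO and 22.2 ± 2.68 CPM in Ctrl (SD, n = 3 each), a 1.48-fold difference with a log2 fold change of 0.56 ± 0.11 (SE), a 95% interval of 0.34 to 0.79 and an edgeR adjusted p of 0.00414. With every replicate 3 left out the log2 fold change was 0.70. The direction rests on the titles of the ImCD8 libraries.

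The other BH3-only genes did not pass in ImCD8. Bid had 29.0, 29.3 and 38.3 CPM in dKO ImCD8, against 30.3, 31.8 and 35.3 CPM in Ctrl ImCD8. The Ctrl values lay within the dKO range, and the log2 fold change of -0.01 had a 95% interval of -0.32 to 0.30. Bcl2l11 had 111, 113 and 75.5 CPM in dKO ImCD8, against 133, 129 and 90.3 CPM in Ctrl ImCD8. Replicate 3 was the low library in both genotypes, the groups overlapped, and the log2 fold change was -0.23 ± 0.16 (SE) with an edgeR adjusted p of 0.487. Bad had 22.2, 19.4 and 12.96 CPM in dKO ImCD8, against 19.4, 16.9 and 19.8 CPM in Ctrl ImCD8. Pmaip1 had 1.14, 1.38 and 2.16 CPM in dKO ImCD8, against 1.90, 2.54 and 1.91 CPM in Ctrl ImCD8. Both pairs of groups overlapped.

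None of the anti-apoptotic genes was called in ImCD8, and Mcl1 was the one of them with no overlap between genotypes. It had 702, 644 and 653 CPM in dKO ImCD8, against 723, 702 and 731 CPM in Ctrl ImCD8, the highest dKO library being a fraction of a CPM below the lowest Ctrl library. The log2 fold change was -0.11 ± 0.06 (SE) with an edgeR adjusted p of 0.385. Bcl2 had 303, 356 and 412 CPM in dKO ImCD8, against 360, 334 and 337 CPM in Ctrl ImCD8, and its interval of -0.19 to 0.30 on the log2 scale held zero. Bcl2l1 had 54.9, 56.3 and 42.4 CPM in dKO ImCD8, against 59.7, 68.0 and 49.8 CPM in Ctrl ImCD8. The groups of both genes overlapped, and replicate 3 had the least Bcl2l1 in each genotype. Bax had 49.5, 60.0 and 65.8 CPM in dKO ImCD8, against 55.8, 54.5 and 60.3 CPM in Ctrl ImCD8. Bak1 had 3.18, 2.39 and 4.21 CPM in dKO ImCD8, against 3.14, 3.24 and 1.91 CPM in Ctrl ImCD8. Neither effector separated the genotypes.

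**Figure D2:**
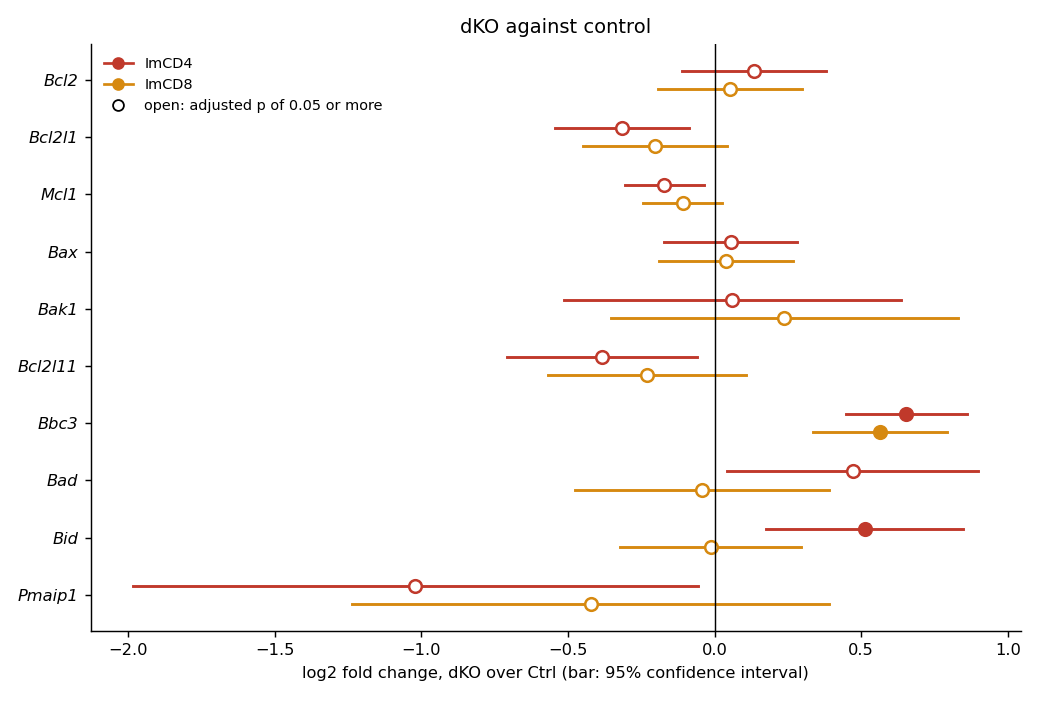
Log2 fold change of dKO over Ctrl for each member on the horizontal axis, in ImCD4 and ImCD8, with 95% confidence intervals from the edgeR fit. Filled points passed an adjusted p of 0.05: Bbc3 at 0.65 in ImCD4 and 0.56 in ImCD8, and Bid at 0.51 in ImCD4.

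Whether the effect of dKO differed between the populations was tested as the ImCD4 effect minus the ImCD8 effect. By edgeR's quasi-likelihood test 0 of the 10 members passed, DESeq2 and limma-voom called 0 as well, and 1 member had an unadjusted p under 0.05; over all genes 0.433% passed. For Bbc3 the difference was 0.09 with a 95% interval of -0.22 to 0.40 and an edgeR adjusted p of 0.887. The member with the unadjusted p under 0.05 was Bid, named for that value, with a difference of 0.52 ± 0.21 (SE), a 95% interval of 0.07 to 0.98, an unadjusted p of 0.027 and an edgeR adjusted p of 0.425. The call of Bid in ImCD4 and its absence in ImCD8 are thus not shown to differ.

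A comparison of ImCD8 with ImCD4 in the same genotype gave larger differences for the family. In Ctrl cells 5 of 10 members were called, Bcl2, Bcl2l1, Bcl2l11 and Bbc3 lower and Bid higher in ImCD8, against a background of 45.3% of genes called, 23.1% higher and 22.1% lower. In dKO cells 6 members were called, the same 4 lower and Bid and Pmaip1 higher, against 43.7% of genes, 22.1% higher and 21.6% lower. The share of members called was thus near the background, while the median size of the log2 change was 0.71 over the members and 0.35 over all genes in Ctrl, and 0.81 over the members and 0.32 over all genes in dKO. Signed medians were -0.11 for the members and -0.001 for all genes in dKO, and -0.02 for the members and -0.01 for all genes in Ctrl.

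The genes lower in ImCD8 came from both sides of the family. Bcl2 had a mean of 357 ± 54.4 CPM in dKO ImCD8 and 666 ± 76.2 CPM in dKO ImCD4, and of 344 ± 14.4 CPM in Ctrl ImCD8 and 607 ± 79.0 CPM in Ctrl ImCD4 (SD, n = 3 each). No ImCD8 library reached an ImCD4 library, and the log2 fold change was -0.90 ± 0.12 in dKO and -0.82 ± 0.12 in Ctrl (SE). Bcl2l1 had a mean of 51.2 ± 7.64 CPM in dKO ImCD8 and 110.0 ± 2.84 CPM in dKO ImCD4, and of 59.2 ± 9.15 CPM in Ctrl ImCD8 and 137 ± 8.31 CPM in Ctrl ImCD4 (SD, n = 3 each), with log2 fold changes of -1.10 in dKO and -1.21 in Ctrl. Bcl2l11 had a mean of 99.9 ± 21.1 CPM in dKO ImCD8 and 216 ± 9.05 CPM in dKO ImCD4, and of 117 ± 23.5 CPM in Ctrl ImCD8 and 282 ± 14.2 CPM in Ctrl ImCD4 (SD, n = 3 each), with log2 fold changes of -1.11 in dKO and -1.27 in Ctrl. Bbc3 was lower in ImCD8 by a log2 fold change of -1.12 in dKO and -1.03 in Ctrl. None of these 4 genes showed an overlap between ImCD8 and ImCD4 libraries of one genotype, and the largest of the 8 edgeR adjusted p-values was 8.15e-05. Bbc3 in dKO ImCD8, at 31.5 to 35.4 CPM, lay below Bbc3 in Ctrl ImCD4, at 43.3 to 48.6 CPM.

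Bid ran the other way. Its mean was 32.2 ± 5.30 CPM in dKO ImCD8 and 19.5 ± 2.66 CPM in dKO ImCD4, and 32.5 ± 2.58 CPM in Ctrl ImCD8 and 13.7 ± 2.72 CPM in Ctrl ImCD4 (SD, n = 3 each). All ImCD8 libraries were above all ImCD4 libraries. The log2 fold change was 0.72 ± 0.15 in dKO, with an edgeR adjusted p of 0.000966, and 1.25 ± 0.16 in Ctrl (SE), with an edgeR adjusted p of 8.44e-06. Pmaip1, at 9 to 19 counts in dKO ImCD8 and 4 to 10 counts in dKO ImCD4, had a log2 fold change of 1.20 ± 0.44 (SE) and an edgeR adjusted p of 0.0387 in dKO, which with every replicate 3 left out was 0.69 with an adjusted p of 0.3. This call was also lost by DESeq2, at 0.0621, by limma-voom, at 0.0825, and without replicate 2 or 3 of dKO ImCD8 or of dKO ImCD4. In Ctrl its groups overlapped and the adjusted p was 0.228 in the edgeR test.

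Mcl1, Bax, Bak1 and Bad were not called between the populations. The libraries of Mcl1 did not overlap in dKO, at 644 to 702 CPM in dKO ImCD8 and 591 to 630 CPM in dKO ImCD4. Mcl1 differed by 0.11 in dKO, with a 95% interval of -0.02 to 0.25, and by 0.05 in Ctrl, with an interval of -0.08 to 0.18, on the log2 scale; scaled by library size alone the Ctrl value was -0.02. Bax differed by 0.05 in dKO, with an interval of -0.18 to 0.27, and by 0.06 in Ctrl, with an interval of -0.17 to 0.29; scaled by library size alone the values were -0.01 in both genotypes. These intervals bound any difference of Mcl1 and Bax more closely than those of Bad and Bak1, whose counts were lower.

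**Figure D3:**
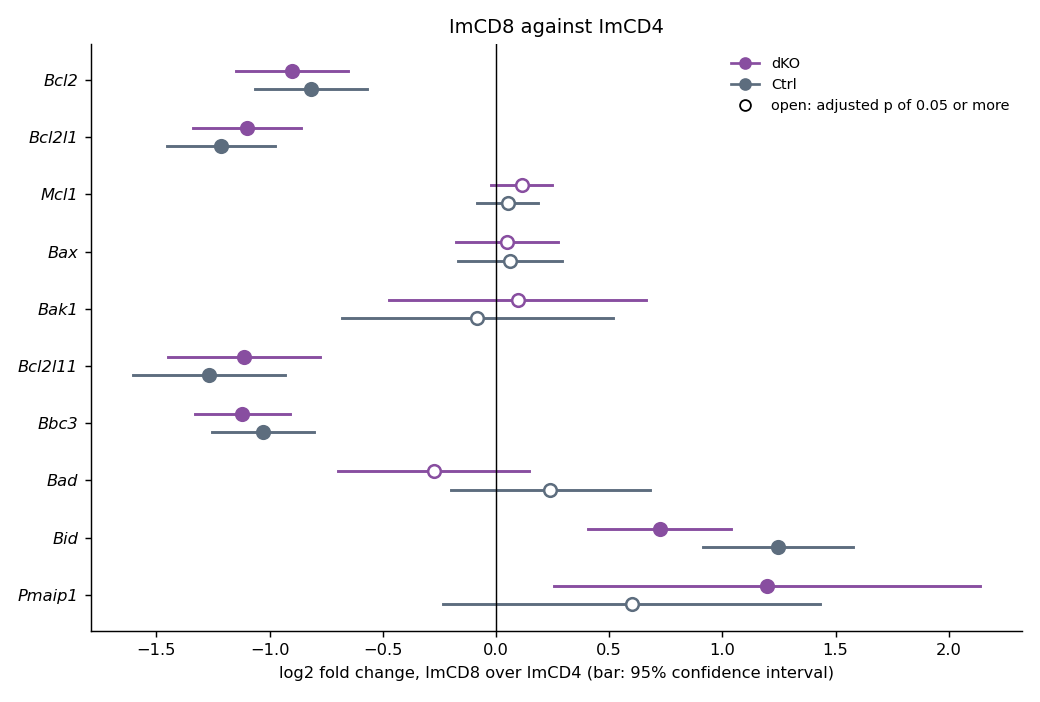
Log2 fold change of ImCD8 over ImCD4 for each member on the horizontal axis, in dKO and Ctrl, with 95% confidence intervals from the edgeR fit. Filled points passed an adjusted p of 0.05; Bcl2, Bcl2l1, Bcl2l11 and Bbc3 lie between -1.27 and -0.82 in both genotypes, and Bid at 0.72 in dKO and 1.25 in Ctrl.

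The populations also differed in markers of maturity and division. Of 7 mature single-positive markers, 6 were higher and 1 lower in ImCD8 in both genotypes, and all 7 proliferation markers tested were higher. Their sums were 2850 to 3650 CPM in dKO ImCD8 against 1000 to 1010 CPM in dKO ImCD4 for the mature list, and 547 to 661 CPM in dKO ImCD8 against 294 to 308 CPM in dKO ImCD4 for the proliferation list. In Ctrl the mature sum was 2510 to 3030 CPM in ImCD8 against 1240 to 1440 CPM in ImCD4, and the proliferation sum 556 to 753 CPM in ImCD8 against 237 to 247 CPM in ImCD4. The B cell list summed to 365 to 497 CPM in dKO ImCD8 against 63.8 to 90.3 CPM in dKO ImCD4, and to 309 to 401 CPM in Ctrl ImCD8 against 71.4 to 94.7 CPM in Ctrl ImCD4, and 2 of the 3 genes tested, Ighm and Cd79b, were higher in ImCD8 in both genotypes. Ighm made up most of the sum, Cd79b had 20.1 to 34.0 CPM in dKO ImCD8 against 3.74 to 6.32 CPM in dKO ImCD4, and 8.18 to 11.7 CPM in Ctrl ImCD8 against 1.59 to 3.43 CPM in Ctrl ImCD4, and Ms4a1 and Pax5 were at most 0.127 CPM in every library. The thymic epithelial list summed to 109 to 123 CPM in dKO ImCD8 against 30.4 to 38.9 CPM in dKO ImCD4, and to 94.4 to 99.3 CPM in Ctrl ImCD8 against 25.3 to 36.2 CPM in Ctrl ImCD4, with 2 of 3 tested, Ly75 and Epcam, higher in ImCD8 in both genotypes, and Krt5 and Foxn1 at most 0.224 CPM in every library. The gamma-delta and innate-like list summed to 431 to 474 CPM in dKO ImCD8 against 266 to 370 CPM in dKO ImCD4, and to 469 to 517 CPM in Ctrl ImCD8 against 62.1 to 71.0 CPM in Ctrl ImCD4, with 3 of 6 higher and 1 lower in dKO and 4 of 6 higher and 1 lower in Ctrl. The double-positive list summed to 165 to 201 CPM in dKO ImCD8 against 174 to 222 CPM in dKO ImCD4, and to 109 to 138 CPM in Ctrl ImCD8 against 159 to 195 CPM in Ctrl ImCD4, with 2 of 6 lower in ImCD8 in both genotypes. Most of the thymic epithelial sum in ImCD8 was Ly75, at 87.9 to 106 CPM in dKO and 84.4 to 88.2 CPM in Ctrl. Most of the gamma-delta and innate-like sum in ImCD8 was Il2rb, at 404 to 444 CPM in dKO and 447 to 491 CPM in Ctrl. In dKO ImCD4 its larger part was Sox13, at 178 to 285 CPM, which had at most 2.50 CPM in ImCD8. The myeloid and dendritic sum was 67.0 to 91.3 CPM over all libraries and the erythroid and platelet sum 0.212 to 21.1 CPM. The part of these differences, and of the gates, in the family's results was not tested.

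Because longer transcripts give more fragments, levels were compared between members only as CPM per kilobase of merged exons. In each of the 4 groups Mcl1 was the highest and Pmaip1 the lowest. In dKO ImCD4 the means in this unit were 180.2 for Mcl1, 72.7 for Bcl2, 36.0 for Bax, 33.8 for Bbc3, 26.9 for Bcl2l11, 24.0 for Bcl2l1, 8.59 for Bad, 5.49 for Bid, 1.25 for Bak1 and 0.243 for Pmaip1. In Ctrl ImCD4 they were 203 for Mcl1, 66.2 for Bcl2, 35.1 for Bcl2l11, 34.6 for Bax, 29.8 for Bcl2l1, 21.4 for Bbc3, 6.22 for Bad, 3.85 for Bid, 1.21 for Bak1 and 0.512 for Pmaip1. Bbc3 thus held the fourth place in dKO and the sixth in Ctrl, and the same places in ImCD8. Neighbours with overlapping libraries were Bax and Bbc3 in dKO ImCD4, and Bcl2l11 and Bax, and Bad and Bid, in Ctrl ImCD4. In ImCD8 the order was closer: Bcl2, with a mean of 39.0 in dKO and 37.6 in Ctrl, overlapped with Bax, at 37.1 in dKO and 36.1 in Ctrl. Bbc3 at 15.5 lay above Bcl2l11 at 12.4 without overlap in dKO ImCD8, while in Ctrl ImCD8 Bcl2l11 at 14.6, Bcl2l1 at 12.9 and Bbc3 at 10.5 were neighbours with overlapping ranges. Bid averaged 9.07 in dKO ImCD8 and 9.14 in Ctrl ImCD8, overlapping with Bcl2l1 and with Bad (7.11) in dKO and with Bbc3 in Ctrl, where Bad was at 7.31. Bak1, at 1.35 in dKO ImCD8 and 1.148 in Ctrl ImCD8, was again next to Pmaip1, at 0.571 in dKO ImCD8 and 0.775 in Ctrl ImCD8.

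**Figure D4:**
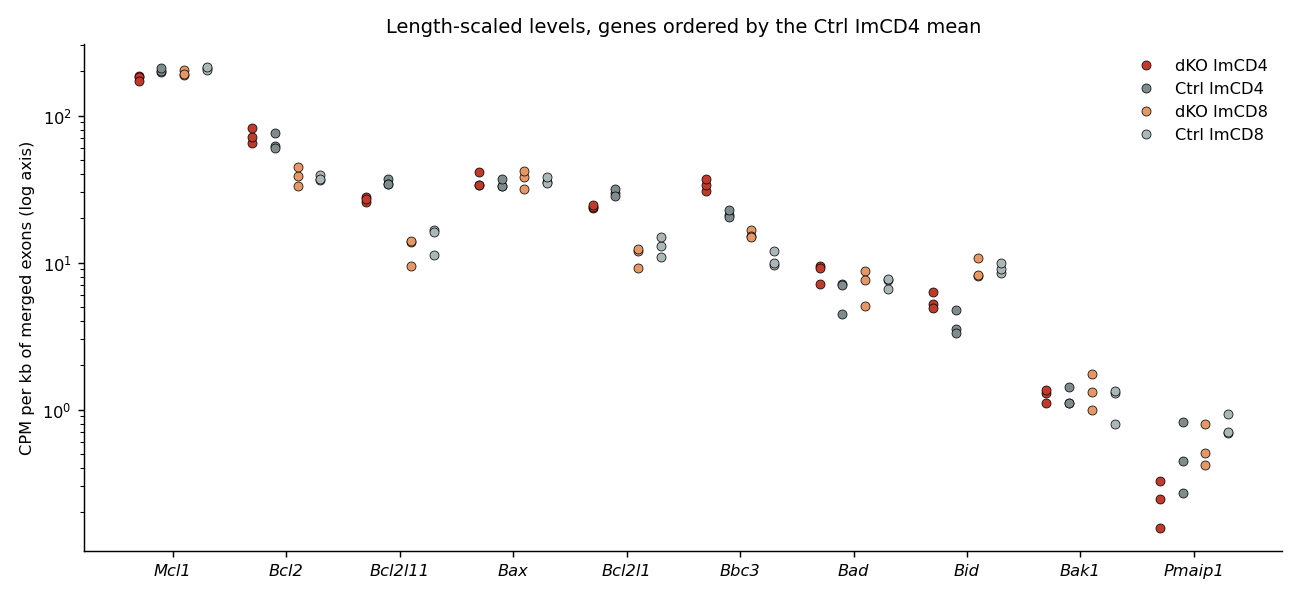
Level of each member per kilobase of merged exons, on a log axis, with members ordered by their mean in Ctrl ImCD4 and 1 point per library. Mcl1 is the highest and Pmaip1 the lowest in all 4 groups, and Bbc3 lies above Bcl2l11 in the dKO groups and below it in Ctrl ImCD4.

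Ratios between members in the same library do not depend on the scaling between libraries. The level of Bbc3 over that of Bcl2l11, both per kilobase, was 1.10, 1.31 and 1.36 in dKO ImCD4, against 0.563, 0.599 and 0.669 in Ctrl ImCD4. In ImCD8 it was 1.20, 1.07 and 1.58 in dKO, against 0.581, 0.615 and 1.06 in Ctrl. The dKO libraries were above the Ctrl libraries in both populations, by a wide gap in ImCD4 and by a narrow one in ImCD8, where Ctrl replicate 3 had little Bcl2l11. Bbc3 over Bcl2 was 0.470, 0.476 and 0.449 in dKO ImCD4 against 0.275, 0.326 and 0.381 in Ctrl ImCD4, and 0.505, 0.388 and 0.330 in dKO ImCD8 against 0.244, 0.271 and 0.324 in Ctrl ImCD8. Bcl2l11 over Bcl2 was 0.427, 0.362 and 0.331 in dKO ImCD4 against 0.489, 0.545 and 0.569 in Ctrl ImCD4, so that this ratio was the lower one in dKO. In ImCD8 the same ratio was 0.420, 0.361 and 0.209 in dKO against 0.420, 0.440 and 0.305 in Ctrl, and the groups overlapped. These ratios were formed with the members' values in view and carry no test.

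**Figure D5:**
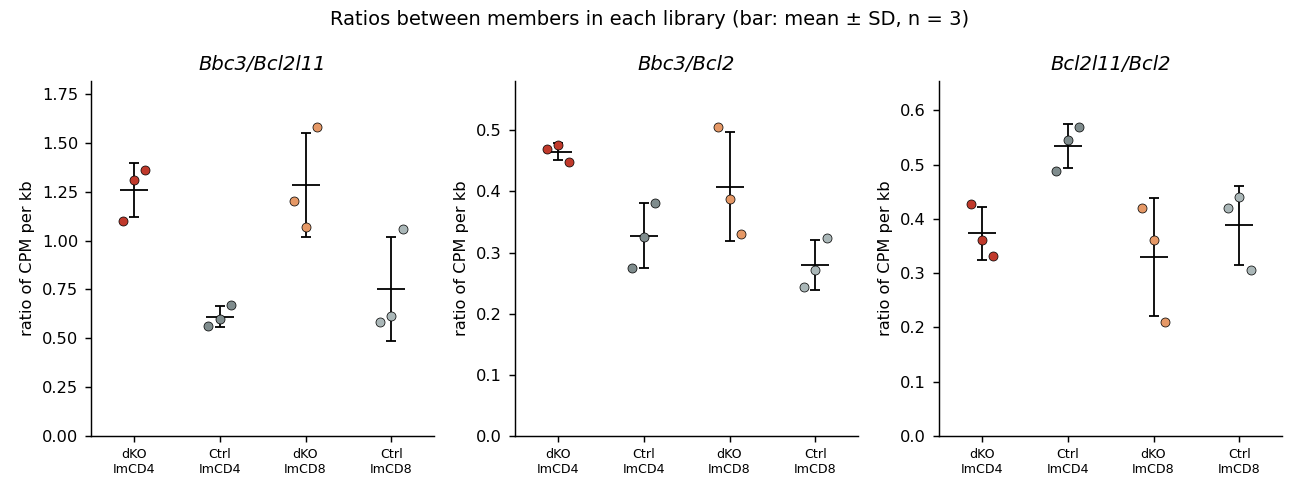
Ratios of CPM per kilobase between members in each library, from 0 on the vertical axis, by group. Points are libraries, the long bar is the mean and the whiskers the SD of 3 libraries; Bbc3 over Bcl2l11 is 1.10 to 1.36 in dKO ImCD4 and 0.563 to 0.669 in Ctrl ImCD4.

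The genes whose levels ran most like each main member were found by Pearson's r of log2 CPM over the 12 libraries, among 8894 genes. This r mostly follows the split into 4 groups and is a description. Nearest to Bbc3 were Pxmp4 (r 0.990), Xbp1 (r 0.989) and Tspan13 (r 0.988). Xbp1, a transcription factor of the unfolded protein response, had a mean of 223 CPM in dKO ImCD4 against 142 CPM in Ctrl ImCD4, and 104 CPM in dKO ImCD8 against 76.0 CPM in Ctrl ImCD8. Pxmp4, of the peroxisomal membrane, had 82.8 CPM in dKO ImCD4 against 55.4 CPM in Ctrl ImCD4, and 44.6 CPM in dKO ImCD8 against 31.9 CPM in Ctrl ImCD8. Bcl2l11 was most like Rreb1 (r 0.989), Susd6 (r 0.984) and Marcks (r 0.979), and Bcl2l1 most like Susd6 (r 0.994), Tdrkh (r 0.988) and Atxn10 (r 0.987). Bcl2 was most like Ubn1 (r 0.975), Dcun1d3 (r 0.970) and the activation marker Cd69 (r 0.969), which had a mean of 212 CPM in dKO ImCD8 against 619 CPM in dKO ImCD4, and 204 CPM in Ctrl ImCD8 against 624 CPM in Ctrl ImCD4. Mcl1, which varied least, was most like Svil (r 0.963), Zmat1 (r 0.932) and Rfc3 (r 0.922).

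The rest of the pathway was read from 6 lists, some of which share genes: Stat5a and Stat5b stand in the last 2. In dKO ImCD4 the median log2 fold change was 0.11 for other Bcl-2 family genes, 0.01 for the apoptosome, caspase and IAP list, 0.09 for death receptors, 0.03 for the p53 network, -0.05 for regulators and 0.11 for IL-7 receptor signalling, against 0.02 over all genes. In dKO ImCD8 the medians in the same order were 0.12, -0.04, -0.03, 0.10, 0.01 and 0.01, against 0.01 over all genes. The shares of all genes called, to which the counts of each list compare, were 13.4% in dKO ImCD4, 6.14% in dKO ImCD8 and 45.3% between the populations in Ctrl. Of 16 other Bcl-2 family genes, 9 were tested, and 1, Bnip3l, a mitophagy receptor, was lower in dKO in each population, with log2 fold changes of -0.30 ± 0.08 in ImCD4 and -0.29 ± 0.08 in ImCD8 (SE) and edgeR adjusted p of 0.0176 and 0.0336. Bnip3l had 148 to 173 CPM in dKO ImCD4 against 191 to 207 CPM in Ctrl ImCD4, and 142 to 160 CPM in dKO ImCD8 against 174 to 194 CPM in Ctrl ImCD8. The call in ImCD4 was lost without Ctrl replicate 1 or 2 or dKO replicate 3. That in ImCD8 was lost in 8 of 21 alternatives. Among these were every replicate 3 left out, and any single ImCD8 library other than dKO replicate 1 left out. Between populations in Ctrl cells 1 of the 9 was higher and 3 lower in ImCD8. Bmf, a BH3-only gene, was higher, at 26.8 to 42.8 CPM in Ctrl ImCD8 against 4.03 to 6.41 CPM in Ctrl ImCD4, and Bcl2a1d, an anti-apoptotic gene of the A1 cluster, was lower, at 8.19 to 11.6 CPM against 17.7 to 19.2 CPM. Reads of the near-identical A1 copies may be split or lost between them, so the Bcl2a1d value is uncertain.

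Downstream of the mitochondrion, 20 of 22 genes of the apoptosome, caspase and IAP list were tested. In ImCD4, 1 was higher in dKO and 1 lower. Cycs, the gene of cytochrome c, had 138 to 144 CPM in dKO ImCD4 against 109 to 120 CPM in Ctrl ImCD4 (log2 fold change 0.30 ± 0.07, edgeR adjusted p 0.0111). Diablo, whose protein Smac opposes the IAPs, had 7.49 to 9.73 CPM in dKO ImCD4 against 12.2 to 15.9 CPM in Ctrl ImCD4 (log2 fold change -0.68 ± 0.20, edgeR adjusted p 0.0351), and this call was lost without any one of the Ctrl ImCD4 libraries or dKO ImCD4 replicate 1 or 2; that of Cycs was lost without Ctrl ImCD4 replicate 2. In ImCD8, 0 of 20 passed in the edgeR test and 4 had an unadjusted p under 0.05. Between populations in Ctrl, 4 of 20 were higher and 5 lower in ImCD8, a share near the 45.3% of all genes called. The mitochondrial nuclease gene Endog had 8.73 to 10.2 CPM in Ctrl ImCD8 against 3.92 to 5.52 CPM in Ctrl ImCD4, and the inflammatory caspase gene Casp1 had 12 to 15 counts a library in Ctrl ImCD8 against 0 to 1 in Ctrl ImCD4.

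Of 14 death receptor and ligand genes, 13 were tested, and 1 was higher and 1 lower in dKO ImCD4. Tnfrsf1b, a receptor for TNF, had 138 to 174 CPM in dKO ImCD4 against 82.7 to 97.8 CPM in Ctrl ImCD4 (log2 fold change 0.80 ± 0.15, edgeR adjusted p 0.00333). Cflar, whose protein restrains caspase-8, had 130 to 151 CPM in dKO ImCD4 against 176 to 179 CPM in Ctrl ImCD4 (log2 fold change -0.32 ± 0.07, edgeR adjusted p 0.0066). In ImCD8, Tnf alone of the 13 passed, at 10.8 to 12.6 CPM in dKO libraries, against 4.93 to 8.82 CPM in Ctrl (log2 fold change 0.77 ± 0.21, edgeR adjusted p 0.0414), a call that was lost in 8 of 21 alternatives, among them without any single ImCD8 library other than Ctrl replicate 3. Between populations in Ctrl, 5 were higher in ImCD8, among them Tnfrsf1b by 2.08 and Ripk1 by 0.88 on the log2 scale, and 4 lower.

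Bbc3 is a known p53 target, and 15 of 20 other genes of the p53 network were tested. In ImCD4, 1 was higher in dKO, Gadd45a, a stress-response gene, at 12.5 to 15.6 CPM in dKO libraries, against 8.90 to 10.1 CPM in Ctrl (log2 fold change 0.53 ± 0.16, edgeR adjusted p 0.0369), and 0 were lower. That call was lost in 7 of 21 alternatives. Among these were every replicate 3 left out, and any single ImCD4 library other than dKO replicate 3 left out. In ImCD8, 0 of 15 passed in the edgeR test and 2 had an unadjusted p under 0.05. Among the genes too low to test, Cdkn1a had 3 to 11 counts in dKO ImCD8 against 0 to 1 in Ctrl ImCD8. In ImCD4 it had 1 to 4 counts in dKO against 0 to 2 in Ctrl. Perp had 2 to 3 counts in dKO ImCD8 against 2 to 7 in Ctrl ImCD8, and Plk2 5 to 10 against 6 to 7. Trp53 itself had 284 to 302 CPM in dKO ImCD4 against 278 to 303 CPM in Ctrl ImCD4, and 230 to 265 CPM in dKO ImCD8 against 235 to 255 CPM in Ctrl ImCD8. Between populations in Ctrl, 4 were higher in ImCD8, including Pidd1 and Ei24, and 7 lower.

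All 28 listed regulators of Bcl-2 family genes were tested. In ImCD4, 2 were higher in dKO, the repressor gene Gfi1, at 29.3 to 38.2 CPM in dKO libraries, against 20.6 to 24.4 CPM in Ctrl, and Myc, at 165 to 201 CPM in dKO libraries, against 101 to 116 CPM in Ctrl. Gfi1 had a log2 fold change of 0.68 ± 0.13 (SE, edgeR adjusted p 0.00227), and Myc of 0.74 ± 0.17 (SE, edgeR adjusted p 0.0138), the call of Myc being lost without Ctrl ImCD4 replicate 1 or dKO ImCD4 replicate 3. The glucocorticoid receptor gene Nr3c1 was lower, at 187 to 205 CPM in dKO libraries, against 213 to 253 CPM in Ctrl (edgeR adjusted p 0.032). It lost its call in 5 of 21 alternatives. These were every replicate 3 left out, and Ctrl ImCD4 replicate 1 or 3 or dKO ImCD4 replicate 2 or 3 left out alone. In ImCD8, 1 of 28 passed, Runx1, lower in dKO at 33.3 to 38.0 CPM against 41.7 to 47.8 CPM in Ctrl (edgeR adjusted p 0.0336). The call of Runx1 was lost in 7 of 21 alternatives. Among these were every replicate 3 left out, and Ctrl ImCD8 replicate 1 or 2 or dKO ImCD8 replicate 2 or 3 left out alone. Between populations in Ctrl, 8 of 28 were higher and 13 lower in ImCD8, against 23.1% of all genes higher and 22.1% lower, with E2f1 higher by 2.06 and Runx1 lower at -2.06 on the log2 scale.

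The list of IL-7 receptor signalling, which maintains Bcl2 and Mcl1 in single-positive thymocytes, had 8 of 13 genes called in ImCD4, against 13.4% of all genes, with 3 higher and 5 lower in dKO. Il2rg, the shared cytokine receptor chain, had 407 to 436 CPM in dKO ImCD4 against 590 to 627 CPM in Ctrl ImCD4 (log2 fold change -0.55 ± 0.07, edgeR adjusted p 0.000107). The survival kinase gene Pim1 had 1.604 to 2.49 CPM in dKO ImCD4 against 4.77 to 8.36 CPM in Ctrl ImCD4, and Pim2 had 29.3 to 35.3 CPM in dKO ImCD4 against 38.5 to 56.4 CPM in Ctrl ImCD4. Socs3, a feedback inhibitor of cytokine signals, had 3 to 7 counts in dKO ImCD4 against 12 to 21 counts in Ctrl ImCD4. The log2 fold changes were -1.64 for Pim1, -0.60 for Pim2 and -1.99 for Socs3. These 4 had the smallest adjusted p of the list. The other 4 called, named after their values were seen, include all 3 that were higher. Those other calls were not run under the alternatives, and the list was chosen with earlier results of these data known. The feedback inhibitor gene Socs1 had 404 to 634 CPM in dKO ImCD4 against 272 to 343 CPM in Ctrl ImCD4 (log2 fold change 0.74 ± 0.16, edgeR adjusted p 0.011). The kinase gene Akt1 had 273 to 312 CPM in dKO ImCD4 against 227 to 241 CPM in Ctrl ImCD4 (edgeR adjusted p 0.0132), and Jak3, whose kinase binds the shared chain, had 116 to 129 CPM in dKO ImCD4 against 92.6 to 107 CPM in Ctrl ImCD4 (edgeR adjusted p 0.0363). The receptor gene Il7r was lower, at 354 to 390 CPM in dKO ImCD4 against 441 to 509 CPM in Ctrl ImCD4 (edgeR adjusted p 0.0385). In ImCD8, 1 of 13 passed, Il2rg, lower at 402 to 476 CPM in dKO libraries, against 537 to 585 CPM in Ctrl (log2 fold change -0.33 ± 0.07, edgeR adjusted p 0.0097). Between populations in Ctrl, 5 were higher and 4 lower in ImCD8, with Socs3 at 35.5 to 43.8 CPM in Ctrl ImCD8 against 1.33 to 2.47 CPM in Ctrl ImCD4, and Il7r at 117 to 144 CPM in Ctrl ImCD8 against 441 to 509 CPM in Ctrl ImCD4.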

How the data were processed

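The deposited files hold raw whole-number counts per gene symbol, 1 file for each of 12 libraries, with 53656 gene rows and 5 summary rows that stayed out of library sizes and tests. The submitters' processing notes name cutadapt 1.18, STAR 2.6.1, HTSeq and mm10. The annotation and the strand option of the counting are not known from the sources at hand. Per the labels' protocols, RNA was purified on micro columns and amplified with a SMARTer kit for low input.

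The members and gene lists were chosen with earlier results of these data known. The test was edgeR 4.0.16 under R 4.3.3: filterByExpr (minimum count 10, total 15) chose the genes, libraries were scaled by TMM (factors 0.946 to 1.04), and 4 group means were fitted to all 12 libraries by robust quasi-likelihood with 8 residual degrees of freedom. Tests were two-sided, with Benjamini-Hochberg adjustment over 13383 genes. Levels are TMM-scaled CPM, and the fitting code was tested on simulated data. A comparison of 3 with 3 by exact permutation cannot go below p = 0.1. Libraries of a group differed by more than counting noise (chi-square per degree of freedom at least 3.73).

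Named list genes are the members past the threshold with the smallest adjusted p, up to 4 per list and dKO contrast and 2 in the Ctrl population contrast; Trp53, Socs1, Akt1, Jak3, Il7r in ImCD4 and marker genes are named beside them. Gene positions and exon lengths came from GENCODE M21, which holds all 10 members and 53.2% of the symbols, and promoters from RefSeq. Counts per gene do not separate isoforms. As alternatives, scaling was by RLE or by library size alone, the test was DESeq2 1.42.0 or limma-voom 3.58.1 with quality weights, the filter was dropped or raised to over 5 CPM in 3 libraries, only the libraries compared were fitted, the replicate 3 libraries were left out or given a term, and each library was left out in turn. The labels hold no batch.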

Additional observations from a re-analysis of the deposited data

Results flagged for a closer look

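In 2 genes of the IL-7 receptor signalling list, the effect of dKO differed between the populations by the edgeR test of the difference. For Socs3 the ImCD4 effect minus the ImCD8 effect was -2.48 on the log2 scale (edgeR adjusted p 0.0308): the mean was 0.411 CPM in dKO ImCD4 against 1.73 CPM in Ctrl ImCD4, and 57.4 CPM in dKO ImCD8 against 40.9 CPM in Ctrl ImCD8, and the call was lost in 6 of 20 alternatives (with limma-voom and without Ctrl ImCD4 replicate 1, dKO ImCD4 replicate 2 or 3, Ctrl ImCD8 replicate 1 or dKO ImCD8 replicate 1). For Pim1 the difference was -2 (edgeR adjusted p 0.0364): the mean was 1.93 CPM in dKO ImCD4 against 6.07 CPM in Ctrl ImCD4, and 6.08 CPM in dKO ImCD8 against 4.77 CPM in Ctrl ImCD8, and the call was lost in 9 of 20 alternatives (without any single library other than dKO ImCD4 replicate 2, Ctrl ImCD4 replicate 3 or dKO ImCD8 replicate 3). Both rest on few counts in ImCD4, with 3 to 7 for Socs3 and 15 to 26 for Pim1 in dKO. Groups of 3 libraries are too small for a check of single outlying libraries.

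The effect also differed for the marker gene Il2rb, by 1.07 (edgeR adjusted p 0.000159), with log2 fold changes of 0.96 in dKO ImCD4 and -0.12 in dKO ImCD8. For the targeted gene Zfp281 it differed by -1.49 (edgeR adjusted p 0.0017), with log2 fold changes of -4.71 in dKO ImCD4 and -3.22 in dKO ImCD8. Zfp281 averaged 18.6 CPM in dKO ImCD4 against 486 CPM in Ctrl ImCD4, and 12.8 CPM in dKO ImCD8 against 119 CPM in Ctrl ImCD8.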

How the results depend on the processing

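Bbc3 kept its direction and passed in 21 of 21 alternatives in each population, with log2 fold changes from 0.59 to 0.72 in ImCD4 and from 0.50 to 0.70 in ImCD8. Bcl2, Bcl2l1, Bcl2l11, Bbc3 and Bid kept direction and call between populations in 21 of 21, in both genotypes. The count of members called in ImCD4 moved most: from 2 to 1 with library size alone, 4 with limma-voom, 5 without a filter, 4 with every replicate 3 left out, 5 with a term for them, and 1 to 4 with single libraries left out (1 without Ctrl ImCD4 replicate 1 or 3, dKO ImCD4 replicate 1 or 2 or Ctrl ImCD8 replicate 1, 4 without either ImCD8 replicate 3). Bid was lost with library size alone, with the filter over 5 CPM, with only 6 libraries, and without Ctrl ImCD4 replicate 1 or 3, dKO ImCD4 replicate 1 or 2, or Ctrl ImCD8 replicate 1 or 2. Bcl2l1 passed in 8 of 21, Bcl2l11 in 7, Mcl1 and Bad in 2 each. Over all genes, leaving out single libraries gave 1055 to 1953 calls in ImCD4, the lowest without dKO ImCD4 replicate 2 and 1086 without Ctrl ImCD4 replicate 1, against 1797 with all, and 473 (without Ctrl ImCD8 replicate 1) to 883 in ImCD8, against 822. ImCD8 calls were 1280 without a filter and 1420 with the term; calls for the difference were 58 with all, 140 with DESeq2, 233 without a filter, 106 without any replicate 3 and 200 with the term.

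Sign changes came only in values that were not called, and the cause was not tested. With every replicate 3 left out, the dKO effect on Bcl2 was -0.022 in ImCD4 and -0.077 in ImCD8, and in ImCD8 it was 0.19 for Bad, -0.005 for Bax and -0.21 for Bak1; Bbc3 differed by -0.059 between populations, and ImCD8 against ImCD4 was 0.075 (Ctrl) and -0.21 (dKO) for Bak1, which was -0.058 (dKO) with limma-voom. Bid in ImCD8 was 0.001 without a filter. With library size alone, ImCD8 against ImCD4 in Ctrl was -0.018 for Mcl1 and -0.007 for Bax, and in dKO -0.011 for Bax. With single libraries left out, the dKO effect ranged from -0.045 to 0.115 for Bax in ImCD4, and in ImCD8 from -0.062 to 0.157 for Bcl2, -0.20 to 0.15 for Bad, -0.051 to 0.143 for Bax and -0.155 to 0.055 for Bid. The difference of effects ranged from -0.23 to 0.003 for Bcl2l1, -0.32 to 0.007 for Bcl2l11 and -0.014 to 0.157 for Bbc3. ImCD8 against ImCD4 ranged from -0.20 to 0.14 for Bak1 in Ctrl, and in dKO from -0.044 to 0.149 for Bax and -0.14 to 0.27 for Bak1.

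No paired analysis was possible because the labels give no replicate numbers, and those used here only follow the order of the records. Counts were few for Pmaip1 (4 to 19 a library) and Bak1 (18 to 37).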
